A study of Rattus norvegicus with 4 samples.

Results

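Stromal microRNAs (miRNAs), known from smooth muscle cells and fibroblasts, were measured in serum exosomes of rats with hepatocellular carcinoma (HCC): rno-miR-143-3p, rno-miR-145-5p, rno-miR-199a-3p, rno-miR-199a-5p and rno-miR-214-3p. They were chosen by name, as the mature strands that the clusters of miR-143 with miR-145 and of miR-199a with miR-214 are known for, and are 5 of the 719 rat miRNAs on the array. Exosomes are small vesicles that cells release into blood, and their RNA was labelled with Cy3 and read on 1-colour Agilent arrays for rat miRNAs. The male rats fell into 4 groups, each with 1 array. The naive array came from rats without injection (day 0), and the light (day 35), moderate (day 49) and severe (day 49) arrays came from rats given HCC; the strain is written baffolo rats in the design text. The labels have an HCC cell line injected, while the design text speaks of HCC exosomes, 1 dose and 4 experiments per time point with other rats in each, and neither says whether the serum of several rats was pooled for an array. The naive rats were sampled at day 0, so disease and day cannot be told apart against them; moderate and severe share their day.

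With 1 array per group there was no replicate error and no p-value could be given. Every ± below is a standard error over replicate spots of 1 array and covers spot noise only, and a difference between arrays describes those arrays, not the conditions.

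miR-143 and miR-145 are made from a shared primary transcript and are abundant in vascular and visceral smooth muscle, where they favour the contractile state; in tissues with an epithelium their signal comes largely from the stroma. miR-199a and miR-214 are made from a transcript antisense to an intron of the dynamin gene Dnm3 and are abundant in fibroblasts and other mesenchymal cells, in the liver in activated stellate cells. In serum any cell type can contribute vesicles, and in such bulk samples fewer cells of a type and less RNA per cell cannot be told apart.

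The mature sequences are shown because the array's probes bind these strands and because each cluster gives several unlike strands. They are RefSeq's for rat assembly GRCr8, written 5′ to 3′ in lower case with the seed, bases 2 to 8, which pairs with target messenger RNAs, in capitals.
rno-miR-143-3p: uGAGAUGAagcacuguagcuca
rno-miR-145-5p: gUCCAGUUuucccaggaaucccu
rno-miR-199a-3p: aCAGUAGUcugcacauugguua
rno-miR-199a-5p: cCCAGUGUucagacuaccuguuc
rno-miR-214-3p: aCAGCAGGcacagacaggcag

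In GRCr8, rno-miR-143-3p lies at chr18:57371373-57371394 and rno-miR-145-5p at chr18:57370033-57370055, both on the minus strand within the long non-coding RNA gene Carmn, with their first bases 1339 bases apart. On the plus strand of chromosome 13, within the protein-coding gene Dnm3, lie rno-miR-199a-5p at chr13:77116255-77116277, rno-miR-199a-3p at chr13:77116294-77116315 and rno-miR-214-3p at chr13:77121713-77121733. The first bases of rno-miR-199a-5p and rno-miR-214-3p are 5458 bases apart. The 5 seeds all differ, and no other array miRNA carries 1 of them among the 641 of 719 that matched a RefSeq mature sequence. The longest run of bases shared with another array miRNA was 8 for rno-miR-143-3p, rno-miR-145-5p and rno-miR-199a-3p, 9 for rno-miR-214-3p (with rno-miR-3120) and 10 for rno-miR-199a-5p (with rno-miR-743b-5p). The gene of rno-miR-214 overlaps that of rno-miR-3120, and rno-miR-3120 was undetected on all 4 arrays. The G and C content ran from 40.9% in rno-miR-199a-3p to 61.9% in rno-miR-214-3p.

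The arrays differed in overall brightness. By the detection call of the scanner software, 140 miRNAs were detected on the naive, 122 on the light, 176 on the moderate and 129 on the severe array, and 111 on all 4, while 537 were on none. The summed signal of the detected miRNAs was 0.643, 1.58 and 0.694 times naive on the light, moderate and severe arrays. Signals were therefore compared after division by each array's 75th percentile over the 111 miRNAs (666, 356, 954 and 415 intensity units for naive, light, moderate and severe). A miRNA counted as measured where it was detected and its summed signal reached the array's floor, the signal of the dimmest probe that had a share of 0.5 or more of its spots well above background (15.6, 15.1, 13.1 and 16.0 units in that order). All 4 arrays lay on 1 slide with 1 scan time. The share of spots left out as outliers was similar except on the severe array, with 525 of 14380 spots against 386 to 387 on the others.

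Of the 5 members, rno-miR-143-3p, rno-miR-199a-3p and rno-miR-214-3p were detected on all 4 arrays, and rno-miR-145-5p and rno-miR-199a-5p on none. Each member had 2 probes of 10 spots. The signal of a miRNA is the sum of its probes' mean spot signals, in intensity units before scaling. Signals of different miRNAs are not read as relative amounts since probes differ in brightness.

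rno-miR-143-3p, which in smooth muscle restrains regulators of cell shape and growth, had a signal of 151 ± 2.03 on the naive, 94.99 ± 2.59 on the light, 537 ± 4.94 on the moderate and 36.1 ± 0.553 on the severe array. In unscaled signal the order was thus moderate, naive, light and severe, with the moderate array at 3.55 times naive and the severe array at 0.239 times naive. After scaling, light came above naive, with 0.267 against 0.227. The spots of its brighter probe ran from 119 to 136 units with a median of 127 on the naive array, and from 68.4 to 87.9 with a median of 82.0 on the light array. They ran from 420 to 458 with a median of 430 on the moderate array, and from 31.2 to 33.2 with a median of 32.2 over 7 spots on the severe array, where 3 outliers were left out. No 2 arrays overlapped in these spots. Its place by signal among measured miRNAs was 68 of 127 on the naive, 67 of 118 on the light, 46 of 165 on the moderate and 98 of 119 on the severe array. Such places depend on probe brightness and on how many miRNAs each array measured. On the severe array the dimmer probe averaged 3.98 units, under the floor, so the value there rests on the brighter probe.

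rno-miR-199a-3p, the strand of its precursor that is abundant in liver and fibroblasts, had a signal of 55.5 ± 1.19, 37.1 ± 1.08, 194 ± 2.03 and 15.2 ± 1.14 on the arrays in the order naive, light, moderate, severe. The unscaled order of the arrays was the same as for rno-miR-143-3p, and after scaling light again came above naive (0.104 against 0.0834). All 20 of its 20 spots were well above background on the moderate array, 16 of 19 on the naive, 10 of 20 on the light and 0 of 19 on the severe array. On the severe array it was detected but lay under the floor of 16.0, so its differences against that array are bounds.

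rno-miR-214-3p, which is raised in fibrotic tissue, had a signal of 33.7 ± 1.09, 25.3 ± 1.14, 123 ± 1.78 and 19.4 ± 1.05 on the arrays in the order naive, light, moderate, severe. Unscaled, the arrays again came in the order moderate, naive, light, severe, and after scaling light came above naive (0.0711 against 0.0506). On the moderate array 18 of 18 spots were well above background, against 12 of 19 on the naive, 5 of 18 on the light and 1 of 20 on the severe array. On the severe array its probes averaged 12.4 and 6.99 units, both under the floor of 16.0, and only their sum exceeded it.

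The 3 detected members together held 0.173% of the detected signal on the naive array, 0.176% on the light, 0.388% on the moderate and 0.0732% on the severe array. The share was near that of naive on the light array, above it on the moderate and below it on the severe array.

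**Figure D1:**
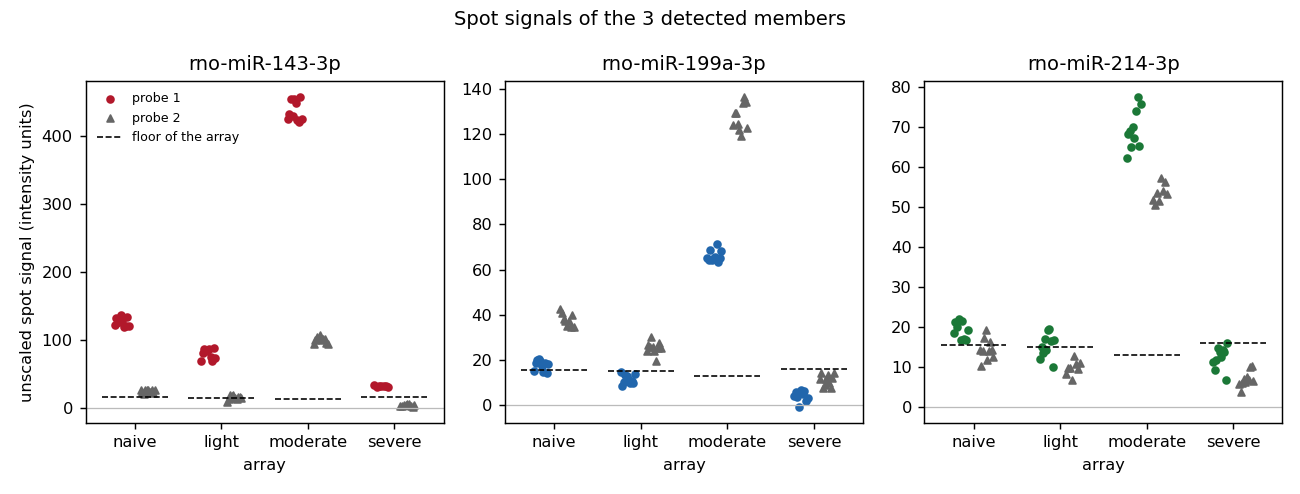
Unscaled signal of every spot kept, in intensity units, for the 3 detected members on each array; circles are probe 1, triangles probe 2 and the dashed line is the array's floor. The moderate spots lie above those of the other arrays for all 6 probes, and on the severe array only probe 1 of rno-miR-143-3p stays above the floor.

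The other 2 members stayed at background. rno-miR-145-5p, which lowers the pluripotency and growth factors KLF4 and SOX2 in many cells, summed to -16.7 ± 0.789 on the naive, -14.9 ± 0.742 on the light, -4.99 ± 0.771 on the moderate and -17.1 ± 0.692 on the severe array, with no spot well above background. Values below 0 arise because the background is subtracted, and the median of all undetected miRNAs was likewise below 0, between -14.9 and -10.8. On the naive array 219 of the 579 undetected miRNAs lay below rno-miR-145-5p, and on the moderate array 450 of 543 did. Its unscaled signal was 11.7 units higher on the moderate than on the naive array, the 9th highest difference among the 537 miRNAs detected nowhere, whose median was 3.09. Its probes went the same way, from -9.50 to -4.82 units and from -7.19 to -0.165 units. No fold is given since neither array measured it.

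rno-miR-199a-5p, the other strand of the rno-miR-199a-3p precursor, summed to -8.35 ± 0.997, -6.58 ± 0.739, -2.75 ± 1.16 and -6.71 ± 0.620 on the arrays in the order naive, light, moderate, severe. The moderate array was again the highest, but its spots overlapped those of the other 3 arrays for both probes after scaling, and its difference from naive of 5.60 units was the 90th highest of 537.

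The opposite arms of the other precursors, rno-miR-143-5p, rno-miR-145-3p and rno-miR-214-5p, were undetected on all 4 arrays. rno-miR-143-5p lay between -10.4 and -4.99 units, rno-miR-145-3p between -15.6 and -10.4, and rno-miR-214-5p between -9.58 and -7.26. Each of the rno-miR-143, rno-miR-199a and rno-miR-214 precursors was thus detected by its 3p strand only, and rno-miR-145 by neither. Detection of 1 arm was common on the array: of 262 miRNA names with both arms, 9 had both detected on the naive array, 46 only the 5p, 47 only the 3p and 160 neither, and on the moderate array these counts were 19, 49, 52 and 142.

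**Figure D2:**
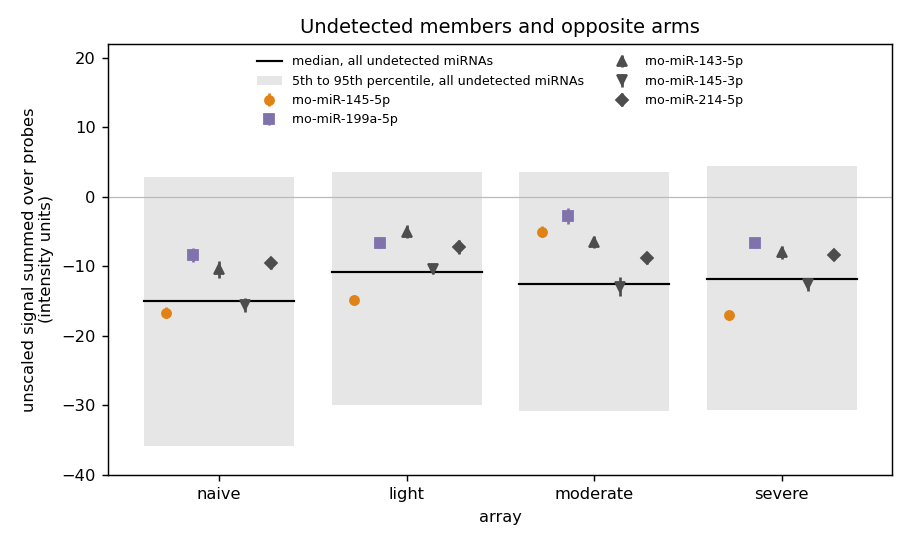
Unscaled signal summed over probes, in intensity units, of the 2 undetected members and the 3 opposite arms on each array; bars are SE over spots, the line is the median and the band the 5th to 95th percentile of all miRNAs undetected on that array. rno-miR-145-5p goes from -16.7 on the naive to -4.99 on the moderate array and is back at -17.1 on the severe array, inside the band throughout.

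The 3 detected members were compared between arrays as log2 differences of scaled signal, and a difference of at least 2-fold was counted. All comparisons with naive share the naive array, so their values stand side by side and are not independent of each other. Spots are those after scaling in what follows.

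On the light array none of the 3 members was 2-fold from naive, where 2.34% of the 128 miRNAs with a value were. The log2 differences were 0.23 ± 0.04 for rno-miR-143-3p, 0.32 ± 0.05 for rno-miR-199a-3p and 0.49 ± 0.08 for rno-miR-214-3p, near the median of 0.27 over all miRNAs. Spots of the light and naive arrays overlapped for all 6 probes. The sign of these small differences depended on the scale: without scaling they were -0.67, -0.58 and -0.41, and with scaling on the spike-ins dmr_285 and dmr_31a they were -0.68, -0.59 and -0.42, while the median over all miRNAs moved to -0.63 and -0.64.

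On the moderate array all 3 detected members were more than 2-fold above naive, and by like amounts. rno-miR-143-3p was 2.48-fold higher (log2 difference 1.31 ± 0.02), rno-miR-199a-3p 2.43-fold higher (1.28 ± 0.03) and rno-miR-214-3p 2.55-fold higher (1.35 ± 0.05). Of all 166 miRNAs with a value, 9 or 5.42% were at least 2-fold higher, and the 3 members are among these 9. Over the 126 miRNAs measured on both arrays the median was 0.22, with the 5th and 95th percentiles at -0.79 and 1.12, and the members held the places 2 (rno-miR-214-3p), 3 (rno-miR-143-3p) and 4 (rno-miR-199a-3p) from the highest. The moderate spots lay wholly above the naive spots for each of the 6 probes.

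The differences between the members were about the size of their spot error or less. rno-miR-143-3p minus rno-miR-214-3p was -0.04 ± 0.06, rno-miR-199a-3p minus rno-miR-214-3p was -0.06 ± 0.06 and rno-miR-143-3p minus rno-miR-199a-3p was 0.03 ± 0.04 in the log2 difference between moderate and naive. Probe by probe the log2 difference was 1.27 and 1.499 for rno-miR-143-3p, 1.38 and 1.23 for rno-miR-199a-3p, and 1.33 and 1.37 for rno-miR-214-3p, whose second probe was under the floor on the naive array. Quantile normalization left rno-miR-214-3p at 0.99, just under 2-fold. A background correction by normexp adds 50 units to each spot, which shrinks the folds of dim probes before scaling. It left all 3 under 2-fold at 0.80, 0.33 and 0.18 for rno-miR-143-3p, rno-miR-199a-3p and rno-miR-214-3p. Under it 0 of 177 miRNAs were 2-fold higher.

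On the severe array the members had unlike values against naive, but that of rno-miR-214-3p was limited by the floor. rno-miR-143-3p was 2.61-fold lower than naive (log2 difference -1.38 ± 0.03), the 14th lowest of 109 miRNAs measured on both arrays. rno-miR-199a-3p was at least 2.16-fold lower (a bound of -1.11, with signals of 15.2 and 55.5 units). rno-miR-214-3p was at -0.11 ± 0.09, which is the median of all 109. At least 2-fold lower were 2 of the 3 members, against 18.2% of the 137 miRNAs with a value, while 24.1% were at least 2-fold higher. With this floor rno-miR-214-3p could not be counted as lower. After scaling, its 33.7 units on the naive array were less than 2-fold above the severe floor of 16.0 units.

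The severe spots lay wholly below the naive spots for both probes of rno-miR-143-3p and of rno-miR-199a-3p, and overlapped them for both probes of rno-miR-214-3p. rno-miR-214-3p had 1 of 20 spots well above background there, so no size is given for its distance from rno-miR-143-3p. With the scanner's total signal the log2 differences were -1.64 for rno-miR-143-3p and -0.84 for rno-miR-214-3p. The bound for rno-miR-199a-3p sets a sum of probes against the floor of a single probe, so it is not strict: with the brightest probe alone it was at least 1.54-fold lower (-0.63), which ends the count at 2-fold. The value of rno-miR-214-3p depends on probes under the floor, and it was -0.79 without scaling and 0.31 under normexp. Normexp also brought rno-miR-143-3p to -0.32 and turned rno-miR-199a-3p to 0.092.

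**Figure D3:**
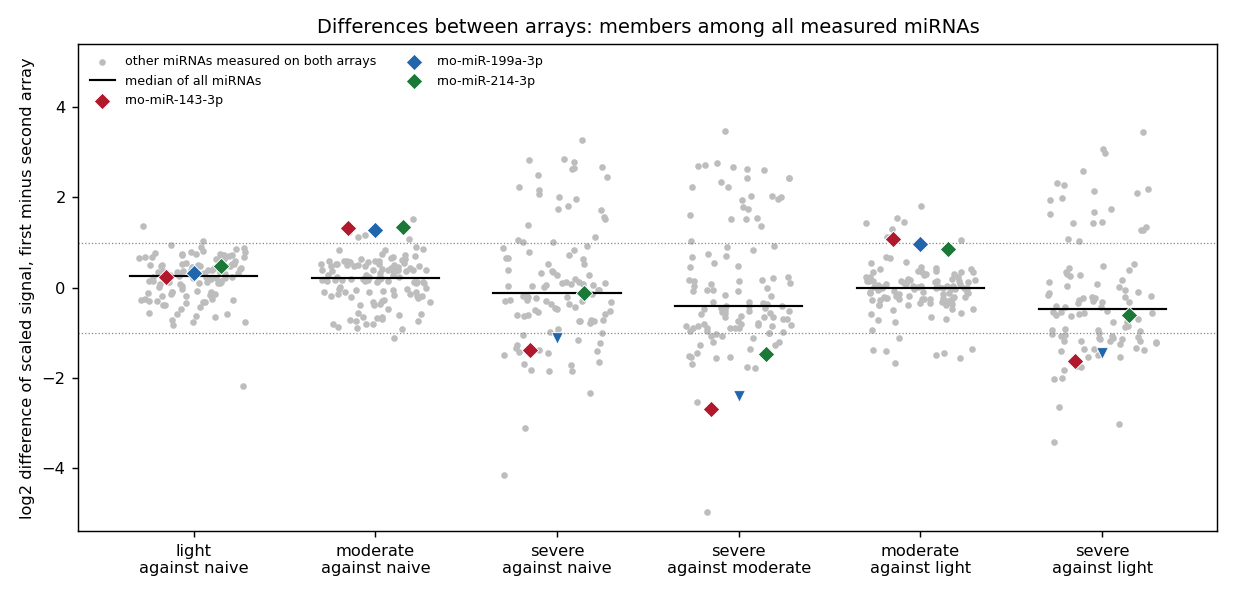
Log2 difference of scaled signal between the arrays named (vertical axis), with a grey point for each miRNA measured on both, coloured diamonds for the members, blue triangles where rno-miR-199a-3p is an upper bound, a black line at the median of all miRNAs and dotted lines at 2-fold. The 3 members lie together near 1.3 against naive on the moderate array, and apart on the severe array, where rno-miR-214-3p is on the median line. With its dim naive signal, the floor of the severe array leaves rno-miR-214-3p no room for a 2-fold fall. The small positive values on the light array become negative without scaling or with spike-in scaling.

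The 2 arrays of day 49 differed in all 3 detected members. Against moderate, the severe array was 6.47-fold lower in rno-miR-143-3p (log2 difference -2.69 ± 0.03), at least 5.26-fold lower in rno-miR-199a-3p (-2.40) and 2.75-fold lower in rno-miR-214-3p (-1.46 ± 0.08). All 3 were at least 2-fold lower, where 17.8% of the 169 miRNAs with a value were lower and 17.8% higher. The fold and count of rno-miR-214-3p rest on the sum of its 2 probes, both under the floor on the severe array. The median over the 115 miRNAs measured on both arrays was -0.41, and rno-miR-143-3p was the 2nd lowest of them and rno-miR-214-3p the 11th lowest. The severe spots lay wholly below the moderate spots for all 6 probes.

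With the brightest probe, set against a floor of the same kind, rno-miR-199a-3p was at least 3.37-fold lower (-1.75), and rno-miR-214-3p at least 1.83-fold lower (-0.87), which does not reach 2-fold. Under normexp rno-miR-143-3p stayed past 2-fold at -1.12, while rno-miR-199a-3p was at -0.24 and rno-miR-214-3p turned to 0.13. Over the scalings tried (none, median, quantile and spike-ins) rno-miR-143-3p ranged from -3.89 to -2.53.

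Against the light array of day 35, the moderate array was 2.11-fold higher in rno-miR-143-3p (log2 difference 1.08 ± 0.04), 1.95-fold higher in rno-miR-199a-3p (0.96 ± 0.04) and 1.81-fold higher in rno-miR-214-3p (0.86 ± 0.07). Only rno-miR-143-3p passed 2-fold, where 4.82% of 166 miRNAs were at least 2-fold higher, and the members held places 7, 9 and 10 of the 117 miRNAs measured on both arrays. The severe array was 3.07-fold lower than light in rno-miR-143-3p (-1.62 ± 0.05), at least 2.71-fold lower in rno-miR-199a-3p (-1.44; with the brightest probe at least 1.51-fold, -0.59) and 1.52-fold lower in rno-miR-214-3p (-0.60 ± 0.10). There 2 of 3 were at least 2-fold lower, against 29.3% of 133 miRNAs. With this floor rno-miR-214-3p could not be counted, since its scaled light signal was less than 2-fold above the scaled severe floor. Both counts moved with the scale, the first to 3 without scaling and the second to 0 with spike-in scaling. The 2 spike-ins did not fall alike from light to severe: dmr_285 went from 4774 to 3592 units and dmr_31a from 1628 to 825.

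The miRNAs whose profile over the 4 arrays was most like a member's were found by the root mean square difference between log2 profiles, each centred on its own mean, over the 104 miRNAs measured on all 4 arrays. For rno-miR-143-3p these were rno-miR-30b-5p at 0.41, rno-miR-326-3p at 0.42 and the myeloid miRNA rno-miR-223-3p at 0.43, and the median over all was 0.83. rno-miR-214-3p came in place 4 at 0.52. For rno-miR-214-3p they were rno-miR-10b-5p at 0.22, rno-miR-497-5p at 0.28 and rno-miR-361-5p at 0.30, with a median of 0.55, and rno-miR-143-3p came only in place 46; the severe value of rno-miR-214-3p behind these places rests on probes under the floor. rno-miR-199a-3p was not ranked since it was not measured on the severe array. With 4 arrays, likeness describes these profiles only.

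**Figure D4:**
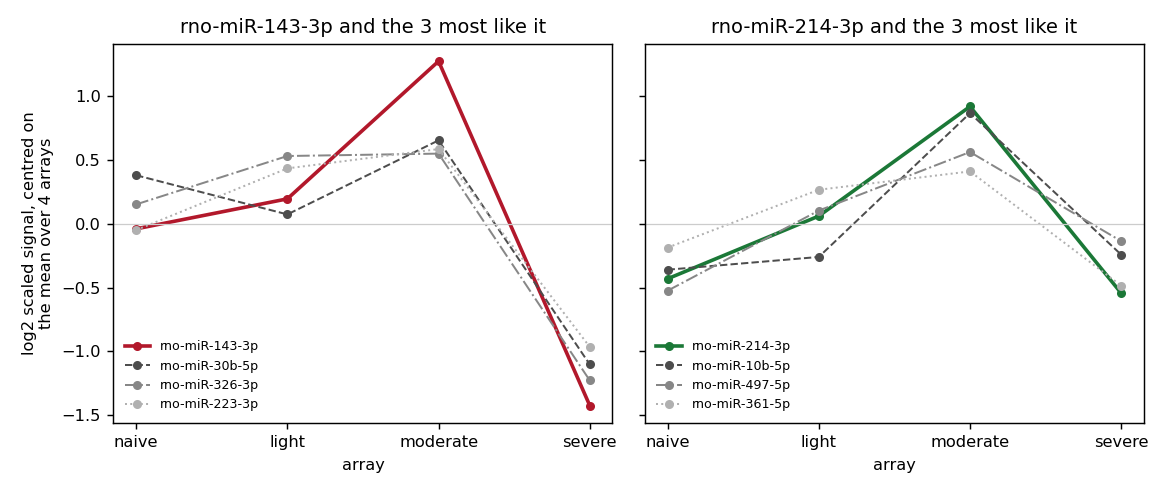
Log2 scaled signal on each array, centred on the miRNA's mean over the 4 arrays, for rno-miR-143-3p (left) and rno-miR-214-3p (right), each with the 3 miRNAs nearest to it; groups are joined by lines only to guide the eye. The centred value of rno-miR-143-3p is higher than that of rno-miR-214-3p on the moderate array (1.27 against 0.92). It is lower on the severe array (-1.42 against -0.54). Each centred value depends on all 4 arrays. Against naive the moderate values were alike, at log2 differences of 1.31 for rno-miR-143-3p and 1.35 for rno-miR-214-3p.

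Among other miRNAs known from stroma and vessel wall, some were high on the moderate array as the members were. None was counted as 2-fold below naive on the severe array, a count that the floor limits. Of a list of 20, all on the array, 15, 12, 17 and 12 were detected on the arrays in the order naive, light, moderate, severe, and rno-miR-218a-5p, rno-miR-34c-5p and rno-miR-196a-5p on none. On the moderate array 3 of the 17 with a value were at least 2-fold above naive, against 5.42% of all 166 miRNAs with a value. None of the 17 was 2-fold below, and the median was 0.49 over those measured on both arrays. The 3 above naive were rno-miR-10b-5p (log2 difference 1.23), rno-miR-10a-5p (1.13), both encoded in Hox gene clusters, and rno-miR-497-5p (1.09), a relative of miR-195. On the severe array 5 of 14 were at least 2-fold above naive, against 24.1% of all 137 miRNAs with a value. None of the 14 was counted as 2-fold below, against 18.2% of all. The median of the list was 0.51, against -0.11 over all miRNAs. The median covers only miRNAs measured on both arrays. From naive to severe, rno-miR-125b-5p went from 41.7 to 4.41 units and rno-miR-195-5p from 18.6 to -0.954. Both were undetected on the severe array, and their bounds were only -0.70 and 0. rno-miR-126a-3p was at -0.98, just under 2-fold.

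The 5 above naive on the severe array were rno-miR-10a-5p (2.66), rno-miR-99a-5p (2.51), rno-miR-29c-3p (1.39), which represses collagen genes, rno-miR-21-5p (1.06), which is raised in many tumours and in fibrosis, and rno-miR-130a-3p (1.004). rno-miR-10a-5p had signals of 53.2, 22.8, 167 and 210 units on the arrays in the order naive, light, moderate, severe, highest where rno-miR-143-3p was lowest. Between severe and moderate 2 of the 17 with a value were at least 2-fold higher, rno-miR-99a-5p (2.03) and rno-miR-10a-5p (1.53). At least 2-fold lower were 2, rno-miR-10b-5p (-1.11) and rno-miR-125b-5p (a bound of -1.07). Of all 169 miRNAs with a value 17.8% were higher and 17.8% lower. The median of the list was -0.14. On the light array 0 of 14 were 2-fold from naive in either direction, against 2.34% of all 128 miRNAs, with a median of 0.43.

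miRNAs of skeletal and heart muscle were, like the members, highest on the moderate and lowest on the severe array. Of 6 listed, 3, 2, 5 and 1 were detected on the arrays in the order naive, light, moderate, severe, and their summed signal was 1251, 420.2, 3464 and 39.4 units, or 0.899%, 0.470%, 1.57% and 0.0407% of the detected signal. In unscaled signal that is the order moderate, naive, light, severe, as for the members; by share, the muscle miRNAs were below naive on the light array while the members were near it. rno-miR-1-3p was 1.53 higher in log2 on the moderate than on the naive array and rno-miR-133b-3p 0.83 higher, while on the severe array rno-miR-133b-3p was at -4.14 and rno-miR-1-3p at a bound of -2.35. The heart miRNA rno-miR-208a-3p was undetected on all 4 arrays. Their part in the members' result was not tested.

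The list of platelets and endothelium (rno-miR-126a-3p, rno-miR-126a-5p and rno-miR-223-3p) held 4.76%, 5.48%, 6.65% and 2.26% of the detected signal on the arrays in the order naive, light, moderate, severe, nearly all of it rno-miR-223-3p, with 6534 of 6619 units on the naive array. rno-miR-126a-3p, known from endothelium, was at a log2 difference of -0.08 on the moderate and -0.98 on the severe array against naive, so on the moderate array it was not high as the members were.

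Red cell miRNAs (3 of 4 listed were matched) held 20.1%, 22.1%, 20.02% and 14.97% on the arrays in the same order, mostly as rno-miR-451-5p. On the severe array rno-miR-451-5p was at -0.30 against naive, while rno-miR-144-3p was at 1.82 and rno-miR-144-5p at a bound of 1.97. Hepatocyte miRNAs held 1.06%, 0.317%, 0.664% and 1.06%. Their members went opposite ways on the severe array, with rno-miR-122-5p at -0.75 and rno-miR-192-5p at 1.56 against naive.

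Lymphocyte miRNAs held 0.664%, 0.568%, 0.505% and 0.136%, and on the severe array rno-miR-150-5p was at -3.11 and rno-miR-342-3p at -1.33 against naive. Leukocyte miRNAs held 0.691%, 0.959%, 0.551% and 0.538%. On the moderate array they went unlike ways against naive, with rno-miR-142-3p at -0.88, rno-miR-142-5p at 0.16 and rno-miR-146a-5p at 0.51. The part of these cell types in the members' result was not tested.

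**Figure D5:**
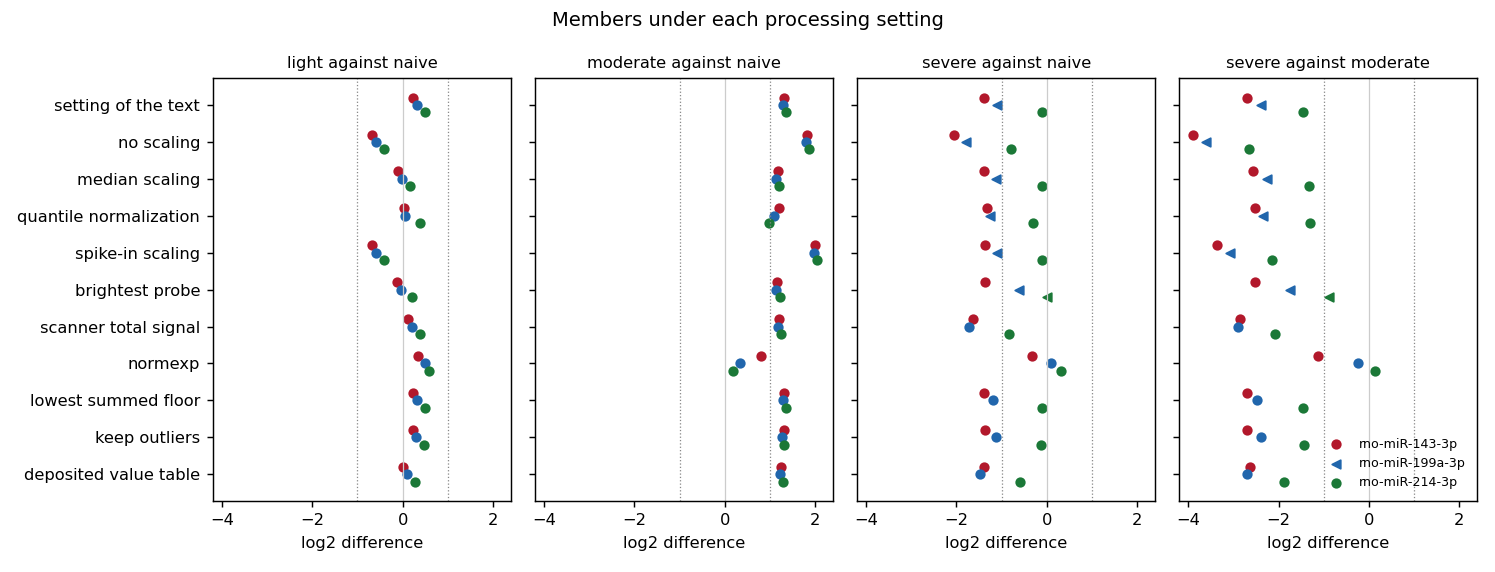
Log2 difference (horizontal axis) of each detected member under each processing setting (vertical axis) in 4 comparisons; triangles are upper bounds and dotted lines mark 2-fold. Against naive, moderate stays above 0 in every setting shown and above 2-fold except for rno-miR-214-3p with quantile normalization and all 3 members with normexp, while light changes side with the scaling and, under normexp, severe turns above 0 in rno-miR-199a-3p and rno-miR-214-3p.

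The deposited value table, which lists 102 of the 719 miRNAs, holds the 3 detected members and not the other 2. Scaled in the same way, its values gave log2 differences between moderate and naive of 1.25 for rno-miR-143-3p, 1.23 for rno-miR-199a-3p and 1.29 for rno-miR-214-3p. Between severe and naive they gave -1.39, -1.48 and -0.59 in the same order, with rno-miR-214-3p nearest to 0. These values are the scanner's total signal of the same spots, so they are no independent reading.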

How the data were processed

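RNA from serum exosomes was measured on 4 arrays, 1 per group, grouped by sample title. Per the labels, RNA came from a commercial exosome kit; the labelling protocol there describes cRNA amplification, a procedure for messenger RNA, and this was not resolved. The deposited spot intensity was, per the file headers, background-subtracted by Agilent Feature Extraction 10.7.3.1 and not scaled between arrays; the submitters' processing notes name version 9.1. The headers give design 046066 annotated on rn4, which was not used here. The deposited value table holds linear total intensity within 0.0424% of the scanner's total, with array medians of 189, 107, 304 and 114 (naive, light, moderate, severe); how its 102 miRNAs were chosen is not stated.

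Outlier spots were left out, spots averaged per probe and probes summed per miRNA. Each sum was scaled by the 75th percentile, on its array, of the miRNAs detected on all arrays, and log2 was taken. A miRNA measured on 1 of 2 arrays was bounded by the higher of the other array's floor and its own signal there. The floor was read at the level of probes, since sums over probes can lie below 0. Calls were differences of at least 2-fold, on Python 3.11.15 with pandas 2.3.3 and numpy 2.4.6; normexp used limma 3.58.1 on R 4.3.3. The calculation was tested on simulated data, where recovery of the set folds was required for bright miRNAs only. The bounds, and signals as dim as those of rno-miR-199a-3p and rno-miR-214-3p on the naive array, were not checked in it.

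The members, the lists and the rule for named miRNAs were chosen with earlier results of these data known, so a pattern seen before has no independent support here. The rule took the 5 members, their opposite arms, the 3 nearest profiles of each member measured on all arrays, and list members. Of 4 red cell names, rno-miR-486 had no match. Alternatives changed the scaling, the background correction, the floor, the outlier filter, the probes used and the source of the values. With 1 array per group, no replicate could be left out. The number of arrays limits the precision of every value.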

Additional observations from a re-analysis of the deposited data

Results flagged for a closer look

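rno-miR-143-3p stood more than 2-fold above naive on the moderate array and more than 2-fold below it on the severe array, although both arrays are of day 49. Its log2 difference of severe minus moderate was -2.69, from 1.31 and -1.38 against naive. rno-miR-199a-3p had a bound of -2.40 for severe minus moderate, from 1.28 and a bound of -1.11 against naive; the bounds are not strict, and with the brightest probe that against naive was -0.63, under 2-fold. The difference between these effects was not tested, as there was 1 array of each group.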

How the results depend on the processing

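No paired analysis was possible because each group had 1 array, and no array could be left out. The count of members past 2-fold changed as follows. With normexp it went from 3 to 0 for moderate against naive, from 2 to 0 for severe against naive, from 3 to 1 for severe against moderate, from 1 to 0 for moderate against light and from 2 to 0 for severe against light. Normexp also turned rno-miR-199a-3p to 0.092 (severe against naive) and rno-miR-214-3p to 0.13 (severe against moderate). It adds 50 units to every spot before scaling, which by construction shrinks the unscaled folds of dim probes. After scaling, such probes are drawn towards the inverse ratio of the arrays' scales, which need not be 0 in log2. Light against naive grew under it, to 0.35, 0.49 and 0.59 for rno-miR-143-3p, rno-miR-199a-3p and rno-miR-214-3p. With the brightest probe the count was 1 for severe against naive, 2 for severe against moderate, 1 for severe against light and 3 for moderate against light. The last was also 3 without scaling, with median scaling and with spike-in scaling, and 2 with quantile normalization, which also gave 2 for moderate against naive. Severe against light was 0 with spike-in scaling and 3 with the scanner's total signal. The other counts computed under an alternative did not change. Why the counts moved with the scaling was not tested. Of 208 values of single members under an alternative, 190 kept their sign, 16 took the opposite sign, 10 of them in light against naive, and 2 were bounds at 0. From past 2-fold 20 went under it with the same sign, and 12 went past it. Over the scalings, that of the text included, the median of all miRNAs against naive ranged from -0.64 to 0.27 on the light array. It ranged from 0 to 0.91 on the moderate and from -0.79 to -0.10 on the severe array. Signal over background limits rno-miR-199a-3p and rno-miR-214-3p on the severe array, and rno-miR-145-5p and rno-miR-199a-5p on all 4.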
